A study of Mus musculus with 9 samples.

Results

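The C/EBP genes examined here are Cebpa, Cebpb, Cebpd, Cebpg and Ddit3, 5 of 21887 protein-coding mouse genes. They were chosen by family membership, and each was followed through the regions that the authors listed in the gene, within 1 kb of either gene end and within 50 kb. The series is chromatin immunoprecipitation followed by sequencing in 3T3-L1, an established mouse preadipocyte line that can be turned into fat cells by hormones. All cells were induced to differentiate 2 days after transfection with an siRNA and were fixed 7 days after induction in 1% formaldehyde. The 3 siRNA groups are a negative control (siControl), siME1, against the cytosolic malic enzyme that makes NADPH, and siME2, against the mitochondrial malic enzyme. The antibodies recognised histone H3 when acetylated (AcH3), histone H2B when acetylated (AcH2B) or HDAC3, a histone deacetylase, and gave 9 libraries, 1 for each antibody and siRNA. The question is whether acetylation and HDAC3 at these genes differed after knockdown of either enzyme. No group has a replicate, so every difference below is one between 2 libraries of 1 cell line, and no test across cultures was possible. The extent of knockdown is not measured by these data.

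C/EBP proteins are basic leucine zipper transcription factors that bind DNA as dimers with one another. In the textbook course of fat cell formation, C/EBPβ and C/EBPδ appear first after the hormonal stimulus, and they help to switch on PPARγ and C/EBPα, which keep the mature fat cell programme running. C/EBPγ and the Ddit3 product CHOP can pair with the other members and blunt their action, and CHOP is best known as a factor induced by stress of the endoplasmic reticulum. Acetylation of histones H3 and H2B marks open, active chromatin, and HDAC3 removes such acetyl groups.

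The reference promoters are shown first, because many of the regions described below began, ended or peaked around them. Sequences are from RefSeq on GRCm38.p6, which held 4 of the 5 genes, and each is written 5′ to 3′ on the gene's own strand. The 250 bases before the annotated start of Cebpa (chr7:35119043-35119292, plus strand) carry 1 TATAAA word, in capitals. The 250 bases before the start of Cebpb (chr2:167688665-167688914, plus strand) carry 5 GGGCGG words and 3 TGACG words, also in capitals. One of the TGACG words stands as its reverse complement CGTCA, and 2 of the GGGCGG words overlap each other.
Cebpa: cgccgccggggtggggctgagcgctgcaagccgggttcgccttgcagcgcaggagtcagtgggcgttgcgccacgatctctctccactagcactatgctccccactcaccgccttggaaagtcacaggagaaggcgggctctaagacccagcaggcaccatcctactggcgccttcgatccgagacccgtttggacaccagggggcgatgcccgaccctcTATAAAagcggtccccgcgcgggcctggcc
Cebpb: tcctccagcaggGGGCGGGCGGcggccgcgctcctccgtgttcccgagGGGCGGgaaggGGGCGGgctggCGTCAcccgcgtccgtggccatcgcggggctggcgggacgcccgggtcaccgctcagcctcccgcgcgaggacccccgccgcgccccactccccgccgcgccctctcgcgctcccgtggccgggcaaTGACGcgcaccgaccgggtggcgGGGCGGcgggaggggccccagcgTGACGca

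Cebpg and Ddit3 start inside the span of a neighbouring gene, so only the 30 bases around each CCAAT word are shown. In all of them CCAAT stands as its reverse complement ATTGG, in capitals. The Cebpg stretches are chr7:35056638-35056667 and chr7:35056577-35056606 (minus strand), and the Ddit3 stretch is chr10:127290704-127290733 (plus strand).
Cebpg distal: acacggcctgtgATTGGctggtggagctgc
Cebpg proximal: agcagcgcttctATTGGtcacggcggcggc
Ddit3: tgccgctttctgATTGGtaggctcctggac

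Words were searched on both strands, from 250 bases before to 50 after each start, and counted in 21263 reference promoters of that length. The CCAAT box was present in 35.4% of promoters. The TATA box word TATAAA was present in 11.6% and the GC box GGGCGG in 42.6%. The word TGACG, part of the site bound by CREB, was present in 20.2%, and it lies inside the longer CREB palindrome TGACGTCA, present in 1.92%. That palindrome, the E-box CACGTG (6.63%) and the C/EBP consensus word TTGCGCAA (0.20%) were found in none of the 4 members. A match is a description of letters and not evidence of binding. The share of G and C in the promoter window was 80.7% at Cebpb, 71.7% at Cebpg, 67.3% at Cebpa and 60.7% at Ddit3.

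Whole-library facts that touch these genes are few. The lists held 21995, 34799 and 28415 regions for AcH3 (siControl, siME1, siME2), 20046, 54649 and 32465 for AcH2B, and 4614, 5202 and 1597 for HDAC3, so knockdown lists were longer than the control lists for both acetylated histones. Fold means the authors' enrichment at a summit, pileup plus 1 over local background plus 1, and a fragment count is the pileup divided by its smallest step. Sequencing depth is not given here, and fragment counts were not brought to a common depth. Comparing their intervals between libraries therefore does not separate depth from enrichment. The weakest listed summits had 8 to 11 fragments in the acetylation libraries and 5 to 6 in the HDAC3 libraries. Of the HDAC3 regions, 91.9% (siControl), 97.6% (siME1) and 95.9% (siME2) had a q-value above 0.05, so the HDAC3 lists are weak. The titles of these 3 libraries name H3, and what is said of HDAC3 here rests on the antibody label. A region within 1 kb of either gene end is called an end region, and where a gene had several the one with the smallest p-value is given. AcH3 end regions were present at 3 of 10 adipocyte markers in each of the 3 libraries (Cebpa and Lpl throughout, Pparg in siControl and siME1, Fabp4 in siME2). They were listed at 8, 7 and 7 of 8 preadipocyte and fibroblast markers, in the order siControl, siME1 and siME2. Of 6 hepatocyte, 6 leukocyte and 6 muscle markers, 1, 2 and 0 had one in siControl. The defining adipocyte genes Adipoq, Plin1, Cidec, Lep, Slc2a4 and Cd36 had no end region in any library, and the part of cell composition in the results was not tested. In such a cell pool, fewer cells carrying a mark and less mark per cell cannot be told apart.

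An AcH3 end region was listed at all 5 genes in each of the 3 AcH3 libraries, where 47.0% (siControl), 41.7% (siME1) and 23.9% (siME2) of all protein-coding genes had one. None of the 5 lost its region in siME1 or siME2, and of all genes marked in siControl 14.0% and 51.5% lost theirs. No member could gain one, since all were already marked, and 2.44% and 2.02% of the unmarked genes did. With a stricter score limit (−log10 q of at least 5) Cebpa lost its AcH3 region in both knockdowns and Cebpd lost its region in siME2. The shares over all genes do not apply at that limit. AcH2B was listed at 3 members in siControl (Cebpb, Cebpg and Ddit3), at 5 in siME1 and at 4 in siME2, against 10.1%, 30.6% and 25.8% of all genes. HDAC3 was listed at 2 members in siControl, 1 in siME1 and 2 in siME2, against 4.53%, 2.99% and 1.91% of all genes.

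**Figure D1:**
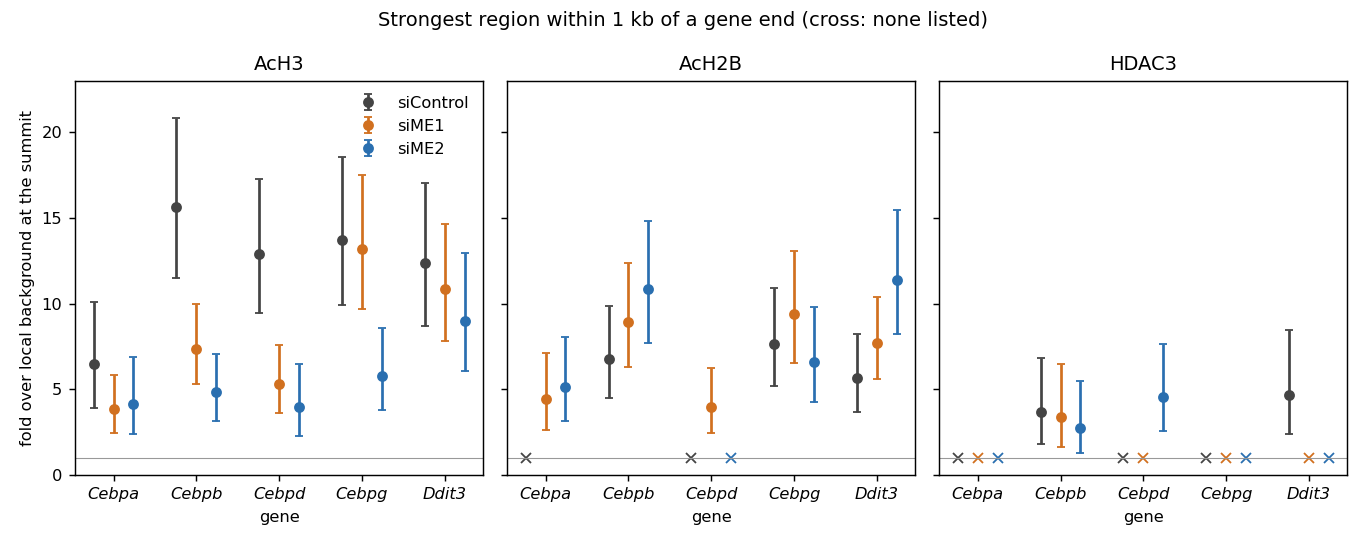
Fold over local background (y axis) of the strongest region within 1 kb of a gene end, for each C/EBP gene (x axis) and library, with exact Poisson 95% intervals of the fragment count. Crosses stand for no listed region. AcH3 folds of Cebpb fall from 15.7 in siControl to 7.34 and 4.82, while its AcH2B folds run from 6.75 to 8.95 and 10.8. The summits of these Cebpb regions lie at different places.

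Cebpb encodes one of the early activators of the cascade, and its AcH3 signal was the strongest of the 5 in siControl. Its AcH3 fold was 15.7 in siControl (95% interval 11.5 to 20.8, 45 fragments), 7.34 in siME1 (5.28 to 9.96, 39 fragments) and 4.82 in siME2 (3.16 to 7.08, 24 fragments). The siControl interval, which covers counting error only and holds the local background fixed, did not overlap the interval of either knockdown library. The intervals of the fragment counts did overlap: they were 32.8 to 60.2 in siControl, 27.7 to 53.3 in siME1 and 15.4 to 35.7 in siME2. The fold ratio to siControl was 0.47 in siME1 and 0.31 in siME2, below the medians over all genes listed in both libraries, which were 0.60 over 8849 genes and 0.44 over 4989 genes. Part of this difference lies in the denominator: the local background at the chosen summit was 1.94 in siControl and 4.00 in both knockdowns. On pileup alone the ratios were 0.79 and 0.51, against medians of 0.67 and 0.45, which puts Cebpb above the gene median in both knockdowns rather than below it.

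The position of the Cebpb signal differed as well. Positions are given in bp from the annotated start, with negative values before it. In siControl 1 AcH3 region ran from -147 to 3562, with its strongest summits at 707 (fold 15.7, 45 fragments) and 1860 (fold 15.0, 44 fragments). In siME1 the strongest region ran from 144 to 3040, with 29 fragments at 688 (fold 7.99) and 39 at 1707 (fold 7.34). The siME1 ratio above thus compares 1707 with 707. A weaker siME1 region of fold 4.14 with 13 fragments ran from -389 to -90. In siME2 the end region ran from 1729 to 2850, with 24 fragments at 1925 and no listed region over the gene's 1518 bp. A weak siME2 region of fold 3.22 with 9 fragments lay before the gene, from -1385 to -1061. The end region listed in siME2 thus lay downstream of Cebpb, where the long noncoding RNA A530013C23Rik has annotated starts at 1844 and 2262. The promoter window of A530013C23Rik overlapped a region in all 6 acetylation libraries at both starts.

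AcH2B at Cebpb went the other way in the fold of the strongest end region, at summits in different places. It was 6.75 in siControl (4.47 to 9.83, 25 fragments), 8.95 in siME1 (6.28 to 12.4, 34 fragments) and 10.8 in siME2 (7.72 to 14.8, 37 fragments), and neighbouring intervals overlapped. The fold ratio of 1.33 in siME1 stood beside a median of 1.32 over 2099 genes. In siME2 it was 1.60, against a median of 1.13 over 1868 genes, and 86.3% of those genes had a lower ratio. The layout was that of AcH3. The siControl region ran from -153 to 2582 with its summit at 1707, and the siME1 region from -742 to 2860 with its summit at 664. Both ran across the gene, whereas the siME2 region ran from 1584 to 3467 with its summit at 2374, beyond the gene's end. A second siME2 region, of fold 3.16 with 10 fragments, lay before the gene from -593 to -281. Between these, no acetylated region was listed over the gene in siME2 for either antibody. AcH2B summits over the gene had folds of 4.24, 3.97 and 5.77 in siControl (at 418, 704 and 1200) and 8.95 and 7.93 in siME1 (at 664 and 1083). Over the gene itself, the higher AcH2B fold was thus seen in siME1 and not in siME2. HDAC3 was listed near Cebpb in all 3 libraries, each time at another place: folds were 3.65 at 2572 in siControl (8 fragments), with a weaker region of fold 2.80 at 354 (5 fragments), 3.37 at 1847 in siME1 (7 fragments) and 2.74 at 66 in siME2 (6 fragments). The siME2 call was lost at −log10 p of at least 3, and all of these regions had a q-value above 0.05.

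Cebpd encodes the other early activator. Its strand is not given in the table used, so its positions are counted from its lower-coordinate end. The AcH3 fold was 12.9 in siControl (9.43 to 17.3, 43 fragments), 5.33 in siME1 (3.61 to 7.61, 28 fragments) and 3.97 in siME2 (2.29 to 6.47, 14 fragments). The siControl interval again overlapped neither knockdown interval. For the fragment counts, the siControl interval (31.1 to 57.9) overlapped that of siME1 (18.6 to 40.5) and not that of siME2 (7.65 to 23.5). The fold ratios to siControl, 0.41 in siME1 and 0.31 in siME2, were the lowest of the 5 genes in both knockdowns. Of all genes listed in both libraries, 12.3% and 15.7% had lower ones. The pileup ratios of 0.60 and 0.31 were also the lowest of the 5 and lay below the all-gene medians, so at Cebpd, unlike Cebpb, fold and pileup pointed the same way. The siControl region ran from -657 to 1561 with its summit at 257, and in siME1 the summit was at 303. In siME2 a region was listed only from 1232 to 1683, toward the end of the gene where Spidr, a DNA repair gene, begins or ends at 1938. Its summit was at 1458, so the siME2 ratios compare different places. The siControl summit nearest to it, at 1315, had a fold of 5.70 (20 fragments), against the 3.97 of siME2 (14 fragments). AcH2B at Cebpd was listed in siME1 alone, at a fold of 3.97 (2.41 to 6.21, 17 fragments), and no AcH2B region lay within 50 kb in siControl. That siME1 region was lost both at the strict score limit and when the siME1 list was cut to the length of the siControl list. An HDAC3 region of fold 4.53 (2.53 to 7.63, 12 fragments) was listed over the lower-coordinate end in siME2 only, with its summit at -6 and a −log10 q of 0.74. That place is one where the siME2 library listed no AcH3 region.

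Cebpa encodes the late activator that, with PPARγ, holds the fat cell state. It had the weakest AcH3 fold of the 5 genes in siControl and siME1 and the next to weakest in siME2: 6.45 in siControl (3.91 to 10.1, 17 fragments), 3.86 in siME1 (2.44 to 5.86, 20 fragments) and 4.15 in siME2 (2.35 to 6.88, 13 fragments). The 3 intervals overlapped. The fold ratio in siME1, 0.60, was that of the median gene, yet the pileup ratio was 1.08, because the local background was 1.79 in siControl and 4.00 in siME1. In siME2 the fold ratio was 0.64 and the pileup ratio 0.74, both above the all-gene medians. The summits stayed close together, at -438, -525 and -455, before the start. The siControl region reached closest to the start, ending at -186, and the knockdown regions ended at -301 and -377, short of the promoter sequence shown above. AcH2B was not listed at Cebpa in siControl and had end regions in siME1 at a fold of 4.43 (2.61 to 7.11, 15 fragments) and in siME2 at 5.15 (3.14 to 8.05, 17 fragments). The siME1 calls were lost at the strict score limit and with lists of equal length, and the siME2 call was lost under neither. No HDAC3 region lay within 50 kb of Cebpa in any library.

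Cebpg encodes the short family member that lacks a transactivation domain. Its AcH3 fold was 13.7 in siControl (9.91 to 18.6, 40 fragments), 13.2 in siME1 (9.70 to 17.5, 45 fragments) and 5.79 in siME2 (3.76 to 8.56, 23 fragments). In siME1 the ratio was 0.96, and 91.8% of the genes listed in both libraries had a lower one. In siME2 the ratio was 0.42, close to the median of 0.44, and the fold interval did not overlap that of siControl. The intervals of the fragment counts, 28.6 to 54.5 in siControl and 14.6 to 34.5 in siME2, did overlap. Thus Cebpg was almost level in siME1 and near the middle of all genes in siME2. The siControl and siME1 regions spanned the start, from -579 to 1414 and from -694 to 1678. In siME2 the span was broken into a piece from -650 to -87 and one from 441 to 1046, with nothing listed between them. AcH2B was 7.66 in siControl (5.19 to 10.9, 28 fragments), 9.38 in siME1 (6.55 to 13.0, 33 fragments) and 6.57 in siME2 (4.24 to 9.78, 22 fragments), and these intervals overlapped. By the strongest end region, Cebpg was the one member whose AcH2B fold was lower in siME2 than in siControl. The ratio was 0.86, and 17.3% of genes had a lower one. It compares 648 in siME2 with 264 in siControl, and 264 lay inside no siME2 region. The siControl summit at 743, nearer to 648, had a fold of 4.68 (25 fragments), below the 6.57 of siME2 (22 fragments). The gene Gm45095 overlaps the start of Cebpg, from -1079 to 1083, and shares its regions, so the signal cannot be assigned to either gene. HDAC3 was not listed within 50 kb of Cebpg.

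Ddit3 encodes CHOP. Its AcH3 fold was 12.3 in siControl (8.70 to 17.0, 35 fragments), 10.8 in siME1 (7.82 to 14.6, 40 fragments) and 9.01 in siME2 (6.05 to 13.0, 27 fragments), and the 3 intervals overlapped. Its ratios of 0.88 and 0.73 were higher than those of 87.7% and 88.4% of all genes listed in both libraries. These values come from different places. The strongest end region lay after the start in siControl, with its summit at 326, and before it in siME1 (-570) and siME2 (-718). After the start, the fold of 12.3 at 326 in siControl stood against 8.32 at 271 in siME1 (29 fragments) and 6.62 at 313 in siME2 (20 fragments), ratios of 0.67 and 0.54. Before the start, the siControl end region had a fold of 5.70 at -1239 (3.50 to 8.83, 18 fragments), below the 10.8 of siME1 and the 9.01 of siME2, ratios of 1.90 and 1.58. Side by side, AcH3 folds of the end regions were thus lower after the Ddit3 start and higher before it in both knockdowns. The intervals of siControl and each knockdown overlapped on both sides. The 2 sides were set apart after the positions had been seen. The upstream regions lie in the annotated span of Mbd6, a methyl-CpG-binding domain gene on the minus strand, which runs past the start of Ddit3 to 76. A stronger siControl AcH3 region, at a fold of 14.8, lay farther into Mbd6, outside the 1 kb window of Ddit3. Its summit was at -2363 (40 fragments), where siME1 had a fold of 7.34 at -2410 (47 fragments) and siME2 5.55 at -2279 (22 fragments). There the folds were lower in both knockdowns, so the higher folds before the start hold for the end regions only.

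AcH2B at Ddit3 was 5.62 in siControl (3.69 to 8.25, 24 fragments), 7.69 in siME1 (5.57 to 10.4, 41 fragments) and 11.4 in siME2 (8.20 to 15.5, 39 fragments). The siME2 ratio of 2.03 was the highest of the members, with 96.2% of genes lower, and the siME1 ratio was 1.37. The local backgrounds were 3.00 (siControl), 4.00 (siME1) and 2.07 (siME2), and on pileup the order of the knockdowns turned, with ratios of 1.74 in siME1 and 1.58 in siME2. The summits were at -1284, -639 and -821, all on the Mbd6 side. A siControl summit nearer to those of the knockdowns, at -737, had a fold of 4.65 (30 fragments). Its pileup of 26.9 was above the 21.5 at -1284 on which these ratios rest, and below the 37.4 of siME1 and the 34.0 of siME2. In siME2 a further AcH2B region covered 27 to 320, just after the Ddit3 start, at a fold of 4.77 (16 fragments). In siME1 such a region covered 750 to 1312, at 3.84 (13 fragments), and in siControl none was listed after the start. HDAC3 was listed in siControl only, from -386 to -182 at a fold of 4.67 (2.39 to 8.44, 9 fragments) and a −log10 q of 1.73, in the gap between the AcH3 regions on either side of the start. This was the only HDAC3 end region of the 5 genes with a q-value under 0.05.

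**Figure D2:**
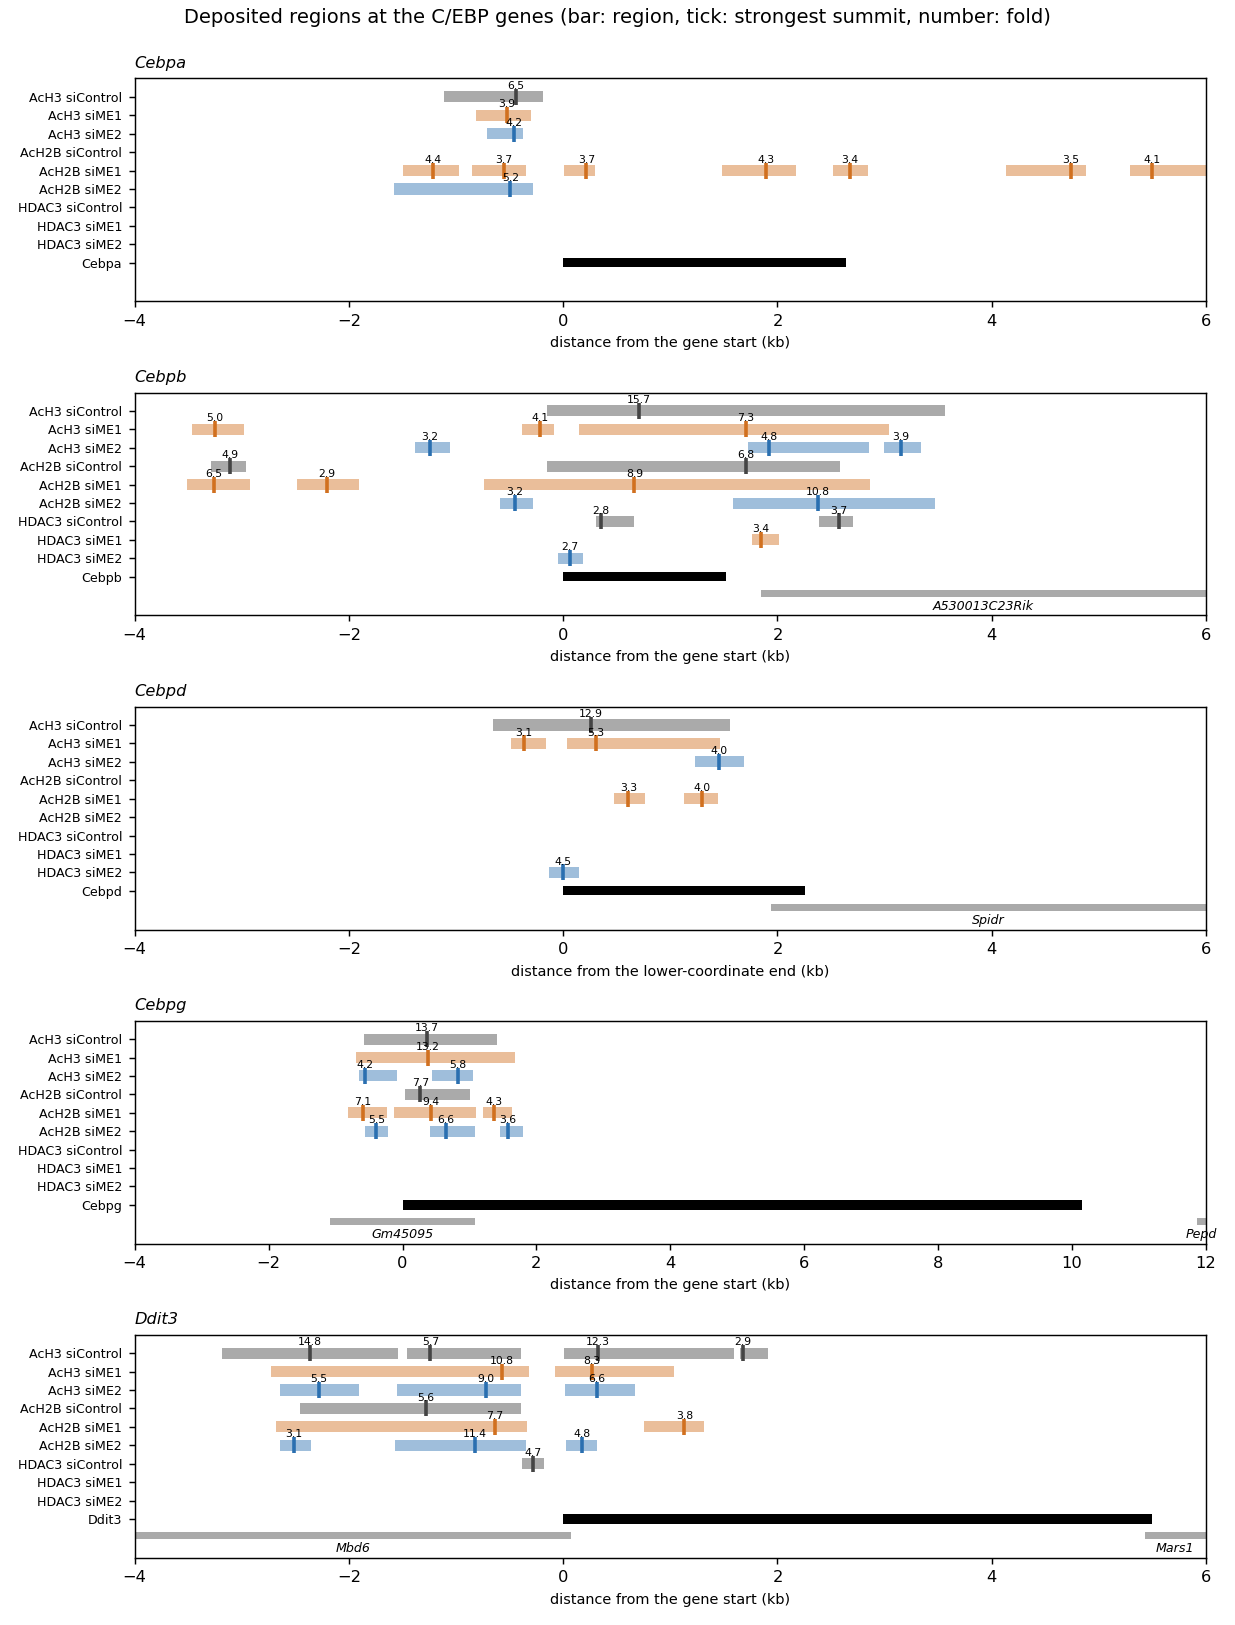
Deposited regions (bars), strongest summits (ticks) and their folds (numbers) by library at each C/EBP gene. The x axis gives the distance from the gene start in kb (Cebpd, from its lower-coordinate end), black bars are the genes and grey bars neighbouring genes. In siME2 no AcH3 bar covers the siControl summit of Cebpb, Cebpd or Cebpg.

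Set side by side, AcH3 folds were lower than in siControl at all 5 genes in both knockdowns, as they were at 93.2% (siME1) and 96.4% (siME2) of the genes listed in both libraries. For Ddit3 this holds for the strongest end region and for the regions after the start, and the direction turned for the end regions before the start. Farther into Mbd6, the siControl fold of 14.8 was again above the folds of both knockdowns. A fold at or under 0.5 times siControl was seen at 2 of 5 in siME1 (Cebpb and Cebpd), against 29.0% of all genes, and at 3 of 5 in siME2 (Cebpb, Cebpd and Cebpg), against 63.3%. Some of these calls compare different places. Against the nearest siControl summit, Cebpb in siME1 (7.99 at 688, 15.7 at 707) and Cebpd in siME2 (3.97 at 1458, 5.70 at 1315) were over 0.5 times. Cebpb in siME2 (4.82 at 1925, 15.0 at 1860) and Cebpd in siME1 (5.33 at 303, 12.9 at 257) stayed under it. The members' median ratios of 0.60 and 0.42 lay near the all-gene medians of 0.60 and 0.44. AcH2B folds were higher than in siControl at 3 of 3 members in siME1, against 82.8% of genes, and at 2 of 3 in siME2, against 65.6%. Of these 2, Cebpb had its siME2 summit beyond the gene, and no AcH2B region was listed over the gene itself in that library. The lower siME2 fold of Cebpg compares 648 with 264, and its siControl fold at 743 was 4.68, below the 6.57 of siME2. No member lost AcH2B in siME1 or siME2, against 5.19% and 15.6% of marked genes, and 2 of 2 unmarked members gained it in siME1 and 1 of 2 in siME2, against 23.4% and 19.2%. With lists of equal length, or at the strict score limit, 0 of 2 gained it in siME1, and no share over all genes is given for these settings. For HDAC3, 1 of 2 members (Ddit3) lost its region in each knockdown, against 80.4% and 84.7%, and 0 of 3 and 1 of 3 (Cebpd) gained one, against 2.21% and 1.28%. Both knockdowns were compared with the same siControl libraries.

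**Figure D3:**
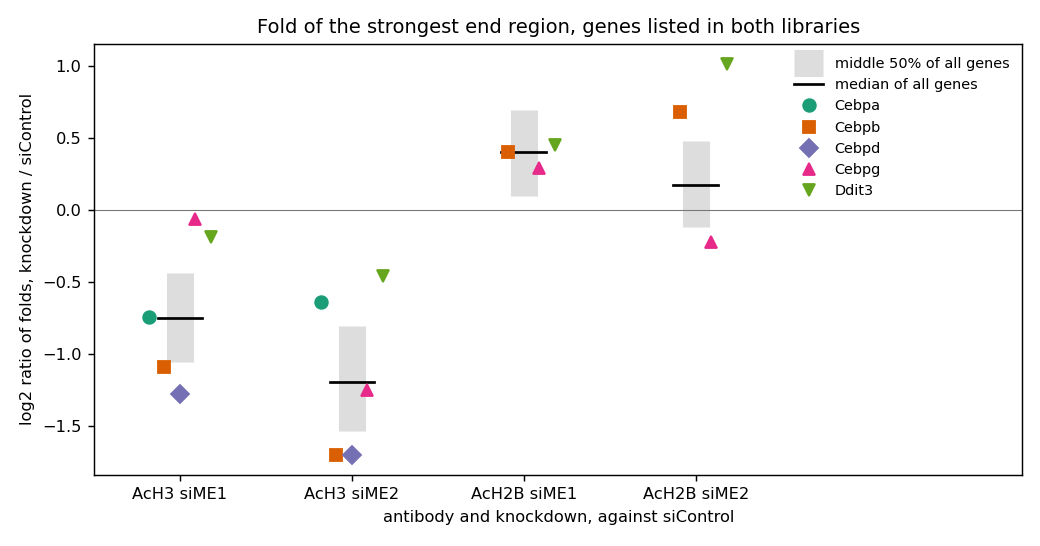
Log2 ratio of the end-region fold in a knockdown library to that in siControl (y axis) for the C/EBP genes listed in both, by antibody and knockdown (x axis). Grey bars hold the middle 50% of all genes and black lines their median; for AcH3, Cebpb and Cebpd lie below the grey bars and Ddit3 above them in both knockdowns, and Cebpg in siME1 and Cebpa in siME2 also lie above. The Ddit3 AcH3 points compare different places, and after its start alone the ratios are 0.67 and 0.54. Other points also compare summits in different places. Those of Cebpb lie at 707, 1707 and 1925 for AcH3 and at 1707, 664 and 2374 for AcH2B (siControl, siME1, siME2). In siME2 the AcH3 summit of Cebpd lies at 1458, against 257 in siControl, and that of Cebpg at 826, against 359. The AcH2B summit of Cebpg in siME2 lies at 648, against 264 in siControl.

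The siControl AcH3 summit itself was inside a siME1 region at all 5 genes, and over all genes it was outside every region in 21.2%. In siME2 it was outside at 3 of 5 (Cebpb, Cebpd and Cebpg), against 66.4%. For AcH2B the siControl summit was outside at 0 of 3 genes in siME1, against 13.9%, and at 1 of 3 in siME2 (Cebpg), against 35.3%. These shares include the genes that lost the end region altogether. Among genes with an end region in both libraries, as the members counted here have, the summit was outside in 9.20% (siME1) and 32.6% (siME2) for AcH3 and in 9.34% and 23.7% for AcH2B. This readout was added after the positions had been seen, and with so few genes nothing particular to the members is read from it.

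The promoter sequences shown above were overlapped unevenly. In siControl, AcH3 regions overlapped the promoter windows of Cebpa, Cebpb, Cebpg and Ddit3, and 45.6% of 17492 genes with such a window. In siME1 the Cebpa window was missed (34.1% of genes overlapped), and in siME2 Cebpa and Cebpb were missed (14.6%). AcH2B overlapped Cebpb and Cebpg in siControl (5.17%), Cebpa, Cebpb and Cebpg in siME1 (19.8%), and Cebpg and Ddit3 in siME2 (15.7%). Cebpg was the member whose window was overlapped in all 6 acetylation libraries. An overlap of the window need not reach the bases shown above. At Cebpg, the AcH2B regions over the window ran from 38 to 1006 in siControl and from -563 to -223 in siME2, off both CCAAT stretches. At Ddit3, the regions in AcH3 siControl (8 to 1594), AcH3 siME2 (16 to 668) and AcH2B siME2 (27 to 320) began after the start. So did the Cebpa region in AcH2B siME1 (6 to 298). Base composition moved with some of these libraries. Among promoters with AcH3 in siControl, AcH2B in siME2 overlapped 41.0% of the 2327 with the least G and C (up to 56.7%) and 19.9% of the 2396 with the most (from 68.7%), which include Cebpb and Cebpg. AcH3 in siME1 went the other way, from 65.5% to 79.7%, and for AcH3 in siME2 the shares were 30.9% and 29.4%. The part of base composition in the result at Cebpb was not tested.

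Within 50 kb the members together had 19, 32 and 33 AcH3 regions (siControl, siME1, siME2), 16, 50 and 34 AcH2B regions and 4, 3 and 2 HDAC3 regions. The ratios to siControl were 1.68 and 1.74 for AcH3, against 1.58 and 1.29 for the whole lists. For AcH2B they were 3.13 and 2.13, against 2.73 and 1.62. When the lists were cut to equal length, AcH3 gave 20 regions in siME1 and 26 in siME2, and AcH2B gave 18 in siME1 and 21 in siME2, so most of the excess in siME1 went with the length of the lists. At the strict score limit the counts were 14, 16 and 9 for AcH3 (siControl, siME1, siME2) and 10, 20 and 16 for AcH2B. The AcH3 count in siME2 was thus below that of siControl at this limit. Of 19 siControl AcH3 regions, 15 were overlapped in siME1 and 12 in siME2, against 71.1% and 46.5% of the whole siControl list. Of 16 AcH2B regions 16 and 11 were, against 87.2% and 69.1%. Of the 4 siControl HDAC3 regions 0 were overlapped in either knockdown, and of the whole list 7.41% and 5.74% were, so the members' count is near that of the list.

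**Figure D4:**
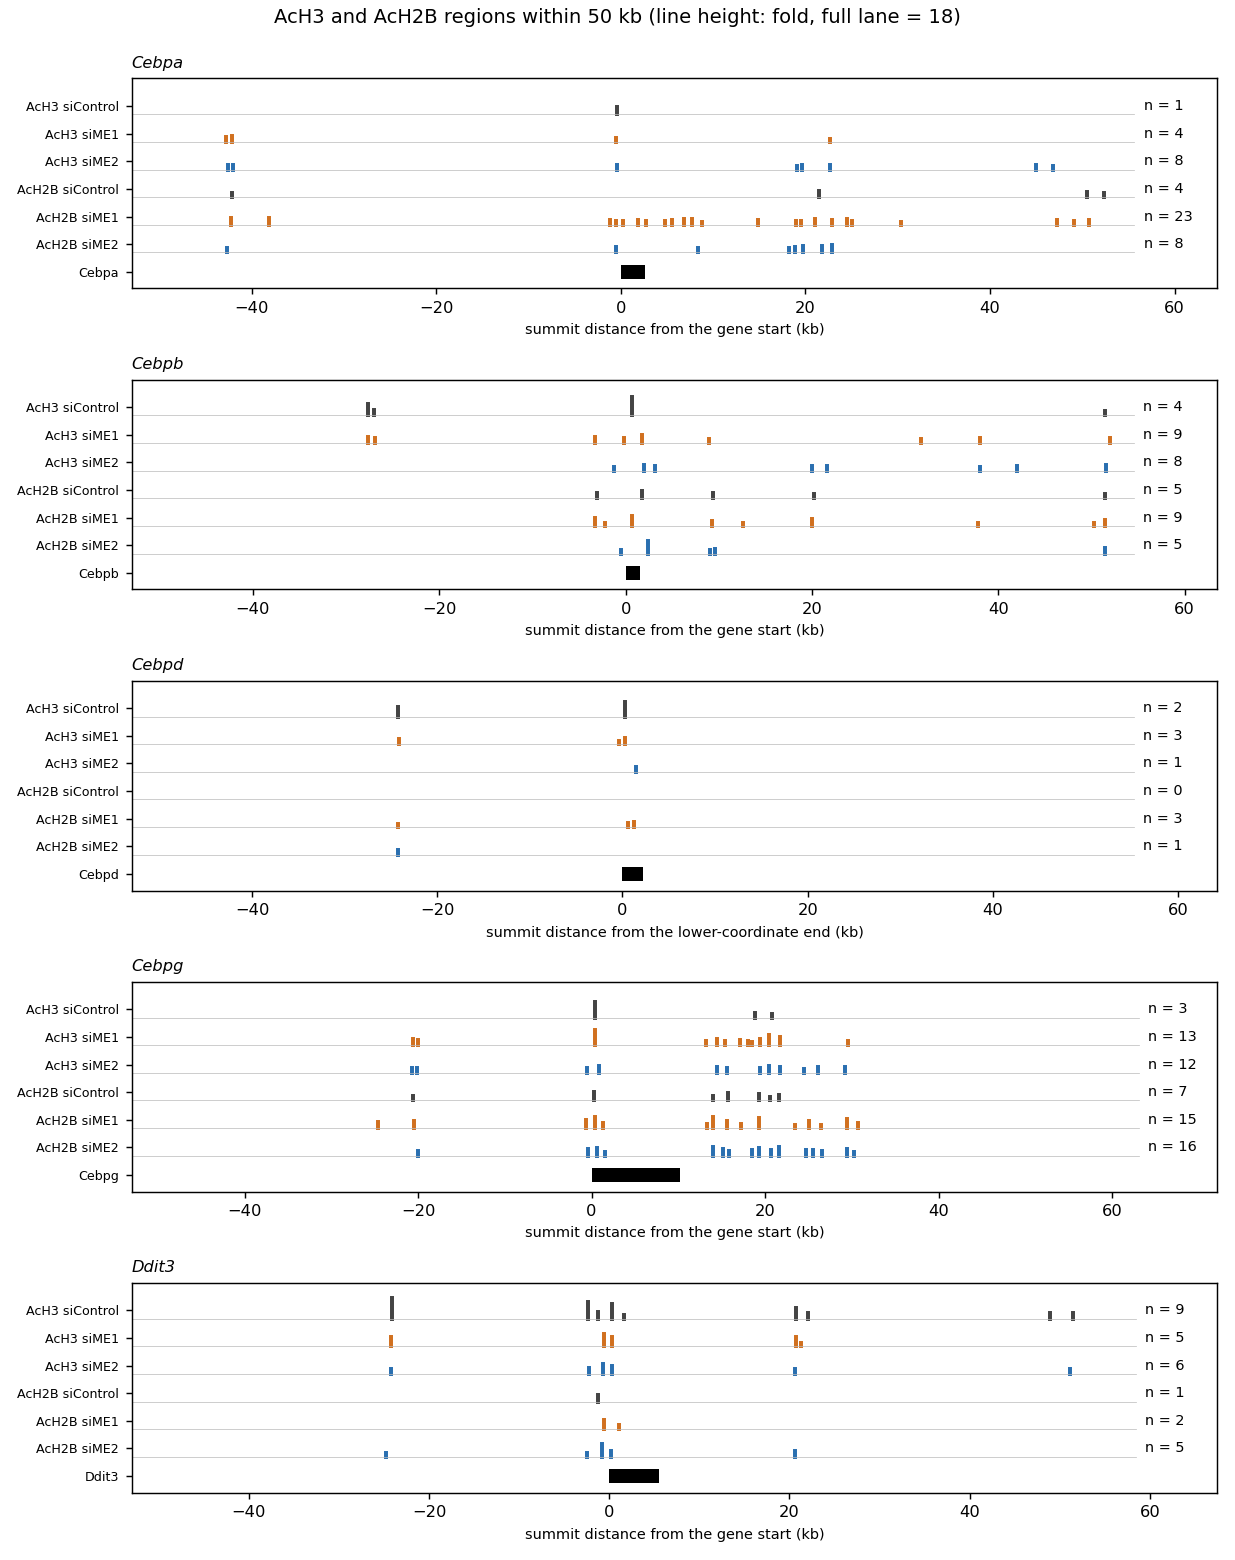
AcH3 and AcH2B summits within 50 kb of each C/EBP gene by library, against distance from the gene start in kb (Cebpd, from its lower-coordinate end). Line height is the fold, and n is the number of regions; the AcH2B siME1 lane holds 23 regions at Cebpa and the AcH2B siControl lane none at Cebpd.

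Merging the acetylated regions over the 6 libraries gave 60 sites. Of these, 35 were listed only in knockdown libraries, 3 only in siControl and 22 in both kinds, against 59.3%, 7.97% and 32.8% of 69243 sites merged the same way over the genome. The shares are near those of the genome, and 4 knockdown lists stand against 2 control lists. Of the 60 sites, 5 were listed in all 6 libraries, against 5.89% of all sites: the sites at Cebpb, Cebpg and the Mbd6 side of Ddit3, one 50985 to 52218 bp from Cebpb and one 17647 to 23219 bp from Cebpg. A single library accounted for each of 28 sites, against 50.5% of all sites, and 18 of these were AcH2B in siME1, against 29.0%, with 14 of them around Cebpa. Such single-library sites have no second library behind them.

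Around Cebpa, AcH2B was listed in 4 (siControl), 23 (siME1) and 8 (siME2) regions, and the median over all genes was 0, 2 and 1. As many as 23 were seen at 2.50% of genes in siME1. Folds were modest, at most 5.97, and with the siME1 list cut to the length of siControl 6 of the 23 were left. The stretch of sites from the gene itself to 7937 bp was AcH2B in siME1 alone. A second group lay from 18056 to 23455 bp, in part at the ends of the noncoding genes Gm35665 and Gm35724. There AcH2B was listed in siControl at 5.29, in siME1 at up to 5.38 and in siME2 at up to 6.29, and AcH3 was listed in the knockdowns only, at 2.98 in siME1 and 4.19 in siME2. AcH3 around Cebpa gave 1, 4 and 8 regions, and in siControl the promoter region was the only one. At the strict score limit these AcH3 counts were 1, 1 and 0.

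Cebpg lies 62.7 kb from Cebpa, and their 50 kb windows share 37.3 kb. The shared stretch held a site from -42969 to -41762 bp of Cebpa, listed in 5 of the 6 acetylation libraries and missing in AcH3 siControl. Around Cebpg, AcH3 was listed in 3, 13 and 12 regions and AcH2B in 7, 15 and 16. Most lay beyond the 3′ end of Cebpg, from 12862 bp outward, inside Pepd, which encodes a dipeptidase for dipeptides ending in proline and whose own 3′ end is at 11858 bp. In the site from 17647 to 23219 bp the AcH3 folds of the strongest regions were 3.93 (siControl), 8.80 (siME1) and 5.63 (siME2). The AcH2B folds there were 5.70, 9.15 and 7.16. At this distal site the AcH3 fold was higher in both knockdowns than in siControl, unlike at the Cebpg start. With lists of equal length siME1 gave 7 AcH3 and 9 AcH2B regions around Cebpg.

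The surroundings of the other members were sparser or belonged to neighbours. At the end of Tmem189, from -28624 to -27312 bp of Cebpb, the AcH3 fold was 9.53 in siControl, it was 5.56 in siME1, and no region was listed in siME2. A site from -3510 to -2924 bp of Cebpb was listed for AcH2B in siControl (4.89) and siME1 (6.54) and for AcH3 in siME1 (5.03). Cebpd had 2 sites in all, its own and one at the ends of Mzt2 and Gm41425, with AcH3 folds of 8.52 in siControl and 4.59 in siME1. Ddit3 was the member with fewer AcH3 regions in the knockdowns, 9 in siControl against 5 and 6. The highest AcH3 fold in its window was at the start of Dctn2, a dynactin subunit gene, at 17.9 (siControl), 8.44 (siME1) and 4.10 (siME2). At the start of Mars1, a methionyl-tRNA synthetase gene, the folds were 9.33, 8.04 and 4.69. All 3 sites listed only in siControl lay in the Ddit3 window.

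AcH2B and AcH3 overlapped in part near the members: 7 of 16 AcH2B regions in siControl, 22 of 50 in siME1 and 22 of 34 in siME2 overlapped an AcH3 region of the same siRNA, against 34.6%, 41.8% and 50.2% of all AcH2B regions. HDAC3 regions lay on an acetylated region in 3 of 4 cases in siControl, 1 of 3 in siME1 and 0 of 2 in siME2, against 43.4%, 27.1% and 43.6% of all HDAC3 regions.

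By distance of the log2 folds over the 6 acetylation libraries, the genes most like Cebpa were Nqo1, a quinone reductase gene (AcH3 5.95, 4.43 and 4.37 in siControl, siME1 and siME2), Ndrg3 and Ccbe1. Those most like Cebpb were Vasn (AcH3 14.2, 7.90 and 4.05), Eef1d and Tigd5, the last pair sharing 1 region. Those most like Cebpg, beside Gm45095, were Emp3 (13.2, 14.0 and 7.07) and Selenow, and those most like Ddit3, beside Mbd6, were Wdr34 and Col6a1. For Cebpd they were Spidr, through the same regions, then Eny2 and Nudcd1, which share a region (12.8, 5.52 and 3.74).

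Other genes of the pathway were read from lists. Up to 5 genes of each list are named, those with the smallest AcH3 p-value in siControl. That choice favours genes that are high in siControl, so lower knockdown folds of the named genes are not read as a result. Of 17 regulators that act upstream of the C/EBP genes in fat cell formation, AcH3 end regions numbered 11 for siControl, 9 for siME1 and 7 for siME2, with median fold ratios of 0.68 and 0.62, beside 0.60 and 0.44 over all genes. Creb1, whose product drives Cebpb after the hormonal stimulus, went from 12.2 to 5.97 and was not listed in siME2. Fosl2, an AP-1 subunit gene, went from 14.6 to 16.9 and 9.02. The CREB coactivator gene Crtc2 went from 14.4 to 8.06 and was likewise not listed in siME2, Stat3 went from 15.2 to 9.18 and 7.30, and Hmgb2, a chromatin protein gene, from 15.0 to 8.27 and 4.18. Of 16 C/EBP target genes of fat cells, 7, 7 and 5 were marked, with median ratios of 0.66 and 0.56. Fasn, the fatty acid synthase gene, had AcH3 folds of 11.9, 9.28 and 6.00, and the insulin receptor gene Insr had 10.1, 6.98 and 5.00. For Lpl, the lipoprotein lipase gene, they were 7.26, 4.96 and 4.50, and for Scd1, a fatty acid desaturase gene, 7.21, 4.60 and 6.60. Acaca, the acetyl-CoA carboxylase gene, had 7.82 and 3.71 and was not listed in siME2.

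Of 16 stress response partners and targets of Ddit3 and Cebpg, 15, 14 and 9 had AcH3, with median ratios of 0.59 and 0.57. Atf4, whose product acts upstream of CHOP in the stress response, had AcH3 folds of 11.0, 14.1 and 7.72 and AcH2B folds of 10.4, 15.3 and 5.83. Atf5 had AcH3 folds of 14.7, 8.95 and 4.64, and Xbp1 had 13.7 and 5.13 and was not listed in siME2. The stress-induced genes Ddit4 and Sesn2 had 14.2, 10.9 and 8.04, and 16.5, 8.18 and 4.34. Of 18 partners and modifiers of C/EBP proteins, 15, 13 and 9 had AcH3, with median ratios of 0.65 and 0.44. Ep300, the acetyltransferase p300, had 25.2, 18.2 and 8.38, and Ncor1, a corepressor of the HDAC3 complex, had 22.1, 16.9 and 3.67. The folds were 15.9, 8.02 and 8.96 at Trib2, a pseudokinase gene whose product promotes C/EBPα breakdown, 14.7, 9.51 and 6.42 at the kinase gene Gsk3b, and 18.5, 8.53 and 5.32 at the chromatin remodeller gene Smarca4. AcH2B end regions in these 4 lists, in the same order and from siControl to siME2, numbered 3, 8 and 5, then 2, 5 and 6, then 7, 13 and 8, then 5, 11 and 8. In each list siME1 had more AcH2B-marked genes than siControl, as over all genes.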

How the data were processed

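Each of the 9 libraries has 1 deposited region list of 10 unnamed columns in the MACS2 layout. The submitters' processing notes name deepTools, bedtools, MACS2, SAMtools and BWA, with versions and settings not given in the sources used here. Per the values, the deposited pileup is a coverage signal in scaled fragments, deposited significance is a −log10 p-value and a −log10 q-value, and the deposited fold is a ratio to local background as computed by the authors. The notes name build mm8, but gene ends of GRCm38.p6 had 53.0% of the AcH3 siControl regions within 1 kb, against 10.4% after a shift of 50 kb, so coordinates were read as GRCm38. Groups follow the antibody and siRNA labels.

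Summits of 1 region were joined, scored by the smallest p-value. Fragments were recovered as pileup over its smallest step, and the background from pileup and fold. Intervals are exact Poisson 95% intervals of fragments, scaled to fold with the local background held fixed, and cover counting error only. With 1 library per group there was no test. Overlap was at least 1 bp. Gene starts and strands came from the RefSeq promoter table. Named genes were the members, the 3 genes nearest to each by log2 folds, up to 5 per list by siControl AcH3 p-value, and neighbours with a region at their end. The members, lists and readouts were chosen with earlier results of these data known, and the word TGACG, base composition, the summit readout, the split of Ddit3 at its start and the shares over whole lists were added later. Counting was tested on simulated data. Python 3.11.15, pandas 2.3.3 and scipy 1.17.1 were used. Alternatives were a stricter score limit, lists of equal length, a summit in the window, a 5 kb window, a distance of 20 kb, a reciprocal overlap of 50% and the end region with the widest overlap.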

Additional observations from a re-analysis of the deposited data

How the results depend on the processing

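At the stricter score limit (−log10 q of at least 5, or −log10 p of at least 3 for HDAC3), end regions were left at 3 members for AcH3 in siME2, 3 for AcH2B in siME1 and 1 for HDAC3 in siME2. Members lost became 1 for AcH3 in siME1, 2 for AcH3 in siME2 and 2 for HDAC3 in siME2, and members gaining AcH2B in siME1 became 0. The lists were shorter at this limit, with 10724 regions for AcH3 in siME2 and 22016 for AcH2B in siME1. Shares over all genes are given for the main settings only, so nothing particular to the members is read from the counts under alternatives. Regions within 50 kb became 14, 16 and 9 for AcH3 in siControl, siME1 and siME2. They became 10, 20 and 16 for AcH2B in the same order, and 1 for HDAC3 in siME2. With lists of equal length, AcH2B in siME1 gave 3 members with an end region and 0 gained, and regions within 50 kb were 20 for AcH3 in siME1, 18 and 21 for AcH2B in siME1 and siME2, and 1 for HDAC3 in siME1. Requiring the summit in the window removed Ddit3 in AcH2B siControl, so 2 members gained AcH2B in siME2. By the siControl summit, 3 members were lost for AcH3 and 1 for AcH2B in siME2. Within 20 kb, regions numbered 12 for AcH3 in siControl and 1 for HDAC3 in siME1. With a reciprocal overlap of 50%, siControl regions found again numbered 9 and 2 for AcH3 in siME1 and siME2 and 7 for AcH2B in siME1. Scoring the end region with the widest overlap moved none of 32 folds beyond its interval, and the 5 kb window moved none of 21 counts by over 1.5 times. Taking the AcH3 end regions before the Ddit3 start alone turned its ratios to 1.90 in siME1 and 1.58 in siME2. No paired analysis was possible because each group has 1 library. Depth limits the weakest calls: HDAC3 end regions rest on 5 to 12 fragments, and a region that is not listed may lie just under the authors' limit, so absence from a list does not show absence of the mark.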
